A study of Mus musculus with 12 samples.

Results

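The genes described here belong to fatty acid uptake and oxidation, the route by which heart muscle takes up fatty acids and breaks them down for energy. They were 38 genes chosen by symbol, and each of them matched a single entry among the 51826 entries (51734 unique symbols) of the count table. In each of the 5 comparisons below, all 38 had enough counts to be tested. The genes fall into 9 roles: uptake and fatty acid binding, acyl-CoA synthetases, the carnitine shuttle, malonyl-CoA control, acyl-CoA dehydrogenases with electron transfer, the hydratase, hydroxyacyl-CoA dehydrogenase and thiolase steps, enzymes for unsaturated fatty acids, a mixed role of thioesterases, uncoupling protein and pyruvate dehydrogenase kinase, and triglyceride storage with lipolysis.

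The libraries came from female FvB mice of a model of the heart in myotonic dystrophy type 1, a disease of expanded CUG repeat RNA. CUG960 +dox mice were homozygous for the TREDT960I transgene, which carries 960 interrupted CTG repeats within human DMPK exons, and hemizygous for MHCrtTA, a transgene that makes the reverse tetracycline transactivator under an α myosin heavy chain promoter. MHCrtTA +dox controls were hemizygous for the transactivator alone. Both genotypes received doxycycline (dox) chow from postnatal day 1 and were recorded as 10 weeks old. The genotypes were bred from different crosses, controls from transactivator carriers and wild type mice and CUG960 mice from parents that both carried the repeat transgene, so that parentage and litter cannot be told apart from genotype. From 3 mice of each genotype both chambers were taken, which gave 12 libraries, with V327, V333 and V334 as controls and V119, V120 and V123 as CUG960 +dox mice. The repeat RNA is driven in cardiomyocytes, whereas each library holds RNA of all cells of the chamber, so that fewer cells of a type and less RNA per cell cannot be told apart.

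Fatty acids are the main fuel of the adult heart. Cd36 and the fatty acid transport proteins carry them into the cardiomyocyte, Fabp3 binds them in the cytosol, acyl-CoA synthetases activate them, and the carnitine shuttle takes the acyl groups into mitochondria, where Cpt1 enzymes are held back by malonyl-CoA. Inside, acyl-CoA dehydrogenases pass electrons to the electron transfer flavoprotein, and a hydratase, a dehydrogenase and a thiolase complete each round of shortening.

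Each library held between 116127966 and 160676189 counts on genes. The lowest count of any member in any library was 335, for Acot1. Levels are given as CPM, counts scaled by library size with edgeR's TMM factors over all 12 libraries, and fold changes come from the fit of each comparison, scaled over its own libraries. A gene was called when its adjusted P value (edgeR's quasi-likelihood test, Benjamini-Hochberg adjustment over all genes tested) was under 0.05 and its fold change at least 1.5 in either direction. With 3 mice in each group an exact permutation test has a smallest P value of 0.1, so the calls rest on the spread that edgeR shares across genes.

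The chamber labels matched the markers. The 4 ventricular cardiomyocyte markers summed to 16676 ± 2041 CPM (SD, n = 3) in ventricles and 1090 ± 59.7 CPM in atria of controls, and the 5 atrial markers to 108 ± 43.2 and 26298 ± 895 CPM. Some libraries stood apart for the members. In atria, the control V327 had the highest level of the 6 mice for 16 of 38 members, and 36 of 38 were above the control mean. In ventricles, the CUG960 +dox mouse V119 had the lowest level of the 6 mice for 25 of 38 members, and 34 of 38 were below the control mean, with a median log2 ratio of −0.29. The medians in V120 and V123 ventricles were −0.17 and −0.10. Among the controls, V334 ventricles had a median of −0.11 with 31 of 38 members below the control mean, as low as V123, and V327 and V333 had medians of 0.02 and 0.04.

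**Figure D1:**
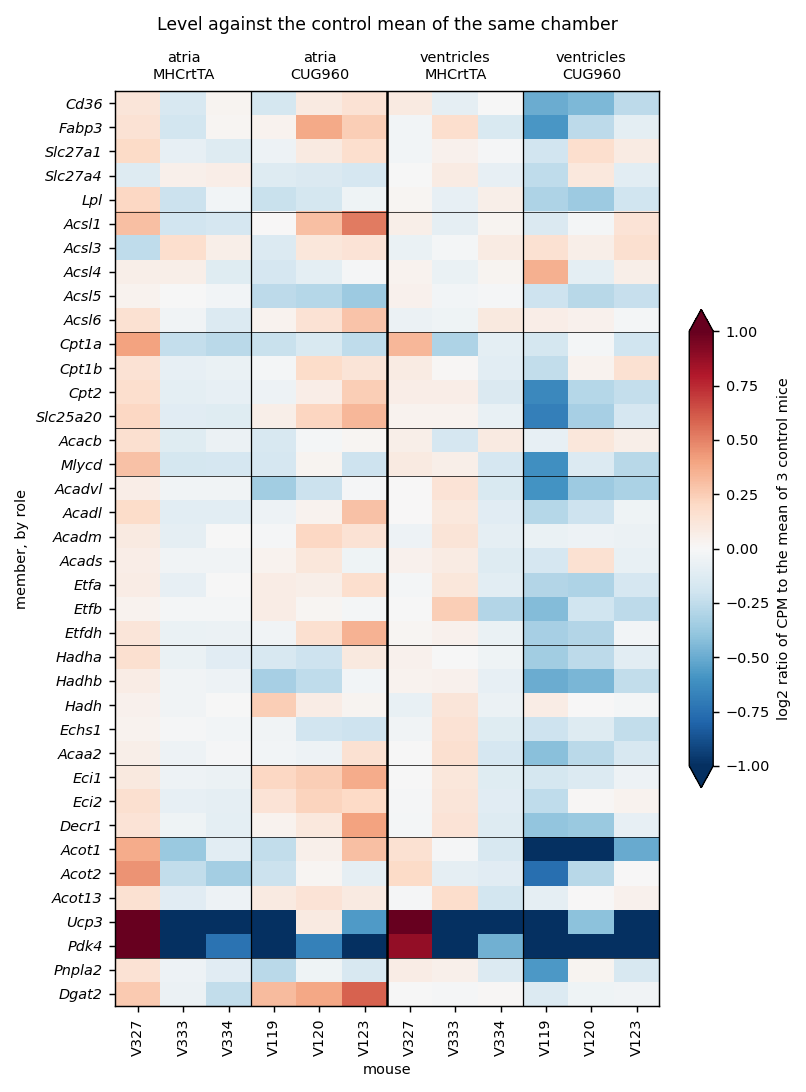
Level of each of the 38 members (rows, by role) in each of the 12 libraries (columns, by mouse), as the log2 ratio of its CPM to the mean of the 3 control mice of the same chamber. Colours end at −1 and 1; the column of V327 is red for Pdk4 and Ucp3 in both chambers, and V119 ventricles are the bluest column, with 34 of 38 members below the control mean.

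Levels per length put the cytosolic binding protein far above every other member. Per kilobase of exon, Fabp3 had a mean of 6258 CPM in control ventricles, followed by the long-chain acyl-CoA dehydrogenase Acadl with 707, the thiolase Acaa2 with 532, the transporter Cd36 with 527 and the flavoprotein subunit Etfb with 514. In ventricles of both genotypes, Fabp3 lay above Acadl and Acadl above Acaa2 in all 3 mice, whereas Acaa2 and its next neighbour overlapped. In control atria the order was Fabp3 with 1379 CPM per kilobase, Acaa2 with 327.1, Acadl with 307, Cd36 with 219.7 and Etfb with 216, and neither Acaa2 and Acadl nor Cd36 and Etfb were separated. Of the 37 neighbouring pairs in the order of levels, between 21 and 25 overlapped between mice, depending on the group. The lowest members in control ventricles were the acyl-CoA synthetases Acsl3 and Acsl6, at 1.39 and 1.15 CPM per kilobase.

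The comparison of chambers in controls describes the members before any effect of the repeat RNA. Members were mostly higher in ventricles: 29 of 38 were called higher and 2 lower, against 16.6% and 18.3% of the 17451 genes tested. Their median log2 fold change, ventricles over atria, was 1.26, and the median over all genes was −0.03. All 7 acyl-CoA dehydrogenase and electron transfer genes rose, by log2 fold changes between 1.21 and 1.58, and so did all 5 genes of the hydratase, hydroxyacyl-CoA dehydrogenase and thiolase steps and all 3 genes for unsaturated fatty acids. The role with the most exceptions was that of the acyl-CoA synthetases.

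Fabp3 had 1255, 998 and 1151 CPM in atria of V327, V333 and V334, and 5043, 5773 and 4636 CPM in their ventricles. This was a 4.56-fold higher level in ventricles (log2 fold change 2.19, standard error 0.12, adjusted P value 2.6e-06), with no overlap between chambers. The log2 fold change of Dgat2, which completes triglyceride synthesis, was 2.31, a 4.95-fold higher level and the largest of the 38. Part of the Fabp3 counts is uncertain, because 21.7% of the 100-base stretches of its transcripts also occur in the pseudogene Fabp3-ps1. The same holds for Etfb, which shares 35.8% with Gm45233, and for Hadhb, which shares 14.8% with other genes, most with Gm13910.

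Cd36, which takes up long-chain fatty acids, had 856, 706 and 804 CPM in atria of V327, V333 and V334 and 2016, 1775 and 1886 CPM in ventricles (log2 fold change 1.27, adjusted P value 1.2e-05). Lpl, which releases fatty acids from lipoproteins, followed the same direction with a log2 fold change of 1.72. The transport proteins Slc27a1 and Slc27a4 were not called, at 0.24 and −0.15.

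Acsl1, the main long-chain synthetase of the heart, had 412, 292 and 298 CPM in control atria and 874, 789.9 and 853 CPM in ventricles (log2 fold change 1.33, adjusted P value 6.2e-05). Acsl4 and Acsl6 went the other way, with log2 fold changes of −0.79 and −1.32, and were the 2 members called lower in ventricles. Acsl6 had between 26.0 and 31.9 CPM in control atria and between 10.95 and 12.2 CPM in ventricles. Acsl3 and Acsl5 were not called. The family therefore differed in direction between its members.

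Cpt1b, the muscle form of the shuttle's outer membrane enzyme, had 393, 335 and 339 CPM in control atria and 669, 635 and 587 CPM in ventricles (log2 fold change 0.83, adjusted P value 8.4e-05). Its liver form Cpt1a had −0.45 (adjusted P value 0.11). Cpt2 and the carrier Slc25a20, the later steps of the shuttle, had log2 fold changes of 1.76 and 1.64. Transcripts of Gm44502 share 75.6% of the 100-base stretches of Cpt1b, so that counts of these genes are hard to separate.

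Acacb, which makes malonyl-CoA at the mitochondrial surface, had 243, 199 and 209 CPM in control atria and 341, 290.3 and 348 CPM in ventricles. Its log2 fold change of 0.59 (adjusted P value 0.0012) lay just above the fold change limit, and was 0.52 and not called without V334. Mlycd, which removes malonyl-CoA, had 0.99.

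Acadl had 700.0, 574 and 573 CPM in control atria and 1419, 1524 and 1308 CPM in ventricles (log2 fold change 1.21, adjusted P value 2.6e-05). Acaa2 had 517, 480 and 491 CPM in atria and 803, 900.1 and 716 CPM in ventricles (0.71, adjusted P value 3.1e-04). Eci1, an isomerase for unsaturated fatty acids, had 106, 95.4 and 94.9 CPM in atria and 312, 339 and 288 CPM in ventricles (1.67, adjusted P value 1.5e-06). No atrial library reached a ventricular one for these 3 genes.

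Pnpla2, the lipase that starts the release of fatty acids from stored triglyceride, had 227, 198 and 189 CPM in control atria and 284, 280.1 and 246 CPM in ventricles. The log2 fold change of 0.40 had an adjusted P value of 0.0053 but stayed under the fold change limit.

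Pdk4, a kinase that switches off pyruvate dehydrogenase and is known to rise when fatty acids are the fuel, depended on the mouse more than on the chamber. It had 667, 133 and 199.8 CPM in control atria of V327, V333 and V334, and 1000, 239 and 389.7 CPM in ventricles. The fit without the mouse gave a log2 fold change of 0.71 (adjusted P value 0.39). With the mouse as a block, Pdk4 was called higher in ventricles, at 0.80 (adjusted P value 1.9e-04), and the members called in controls numbered 32 in place of 31, against 35.0% of all genes with the block. Ucp3 was called higher in ventricles (2.10, adjusted P value 0.046) although V327 atria, at 16.5 CPM, lay above the ventricles of V333 and V334, at 16.4 and 16.2 CPM. The call held without V327 (2.30, adjusted P value 1.2e-04) and was lost without V333 (2.06, adjusted P value 0.10) and without V334 (2.06, adjusted P value 0.058).

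In CUG960 +dox mice the same comparison called 26 members higher in ventricles and 1 lower, Acsl6, against 16.4% and 17.2% of the 17559 genes tested. The median log2 fold change of the members was 0.99, and that of all genes −0.01. All 27 were also called in controls. The 4 members called in controls but not in CUG960 +dox mice were Acsl4, Acaa2, Eci2 and Acot1, with log2 fold changes of −0.58, 0.41, 0.50 and −0.48. With the mouse as a block, Acsl4 and Acot1 were called as well, both lower in ventricles, against 33.6% of all genes called in either direction. For Acot1 the direction was opposite to that in controls, where it was higher in ventricles by 0.68 (adjusted P value 0.013, and 0.067 without V333), and the difference between the genotypes is tested below as an interaction.

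**Figure D2:**
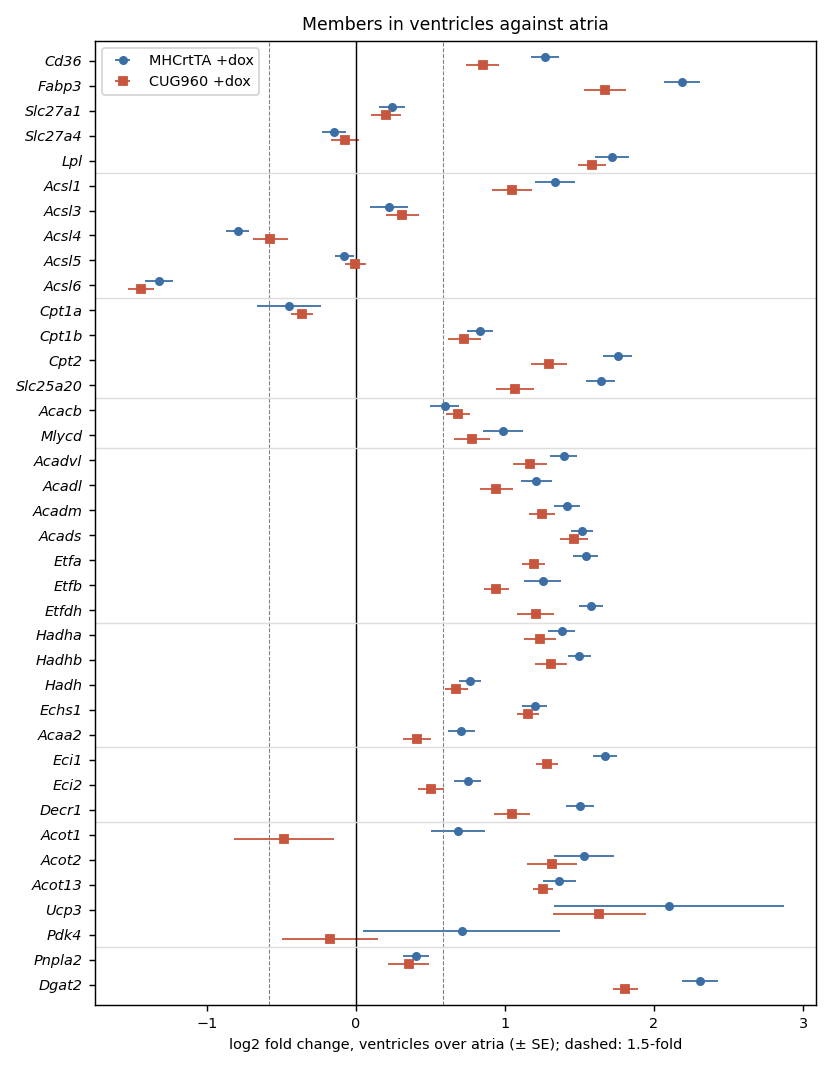
Log2 fold change of each member, ventricles over atria, with its standard error, in MHCrtTA +dox controls (blue circles) and CUG960 +dox mice (red squares); dashed lines mark a 1.5-fold difference and grey lines separate the roles. Most members lie to the right of 0 in both genotypes, with medians of 1.26 and 0.99; Acsl4 and Acsl6 lie to the left.

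Hadha and Hadhb encode the α and β subunits of the mitochondrial trifunctional protein, and lie head to head on chromosome 5 of GRCm38, Hadha on the minus strand from 30118304 to 30155162 and Hadhb on the plus strand from 30155248 to 30184593. Their exons are separated by 85 bases, shown here because both genes were higher in ventricles (log2 fold changes of 1.38 and 1.5 in controls). It is written on the strand of Hadhb, in lower case throughout because it holds no AGGTCA, the hexamer bound by many nuclear receptors, and lies at chr5:30155163-30155247:
Hadha–Hadhb: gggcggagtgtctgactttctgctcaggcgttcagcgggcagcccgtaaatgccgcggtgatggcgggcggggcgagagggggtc
The sequence has a GC content of 69.4%, and the RefSeq start sites of the genes are 273 bases apart.

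Promoter windows of 300 bases, 250 before and 50 after the RefSeq start site on GRCm38.p6, were at hand for 32 of the 38 members. AGGTCA was searched on both strands and stood in 8 of the 32 windows (25.0%), those of Acacb, Acadm, Acadvl, Acsl6, Cd36, Cpt1a, Echs1 and Ucp3, and in 18.1% of the windows of 27025 genes. The repeat AGGTCANAGGTCA, which contains the hexamer, was in 0 of 32 windows and 0.0481% of all. TCAAGGTCA, which also contains it, was in 1 window, that of Acsl6 (3.12%), and 0.466% of all. A match describes letters, not a bound site. The windows of Acadvl and Pdk4 are shown outside exons annotated in GENCODE M21, each on the minus strand of its gene. The RefSeq start site of Acadvl, at 70015428, lies within the stretch shown. Both windows were chosen because both genes had lower levels in CUG960 +dox ventricles with an adjusted P value under 0.05. The hexamer stands in only that of Acadvl (capitals), 87 bases before its RefSeq start site. The stretches lie at chr11:70015412-70015678 and chr6:5496310-5496528:
Acadvl: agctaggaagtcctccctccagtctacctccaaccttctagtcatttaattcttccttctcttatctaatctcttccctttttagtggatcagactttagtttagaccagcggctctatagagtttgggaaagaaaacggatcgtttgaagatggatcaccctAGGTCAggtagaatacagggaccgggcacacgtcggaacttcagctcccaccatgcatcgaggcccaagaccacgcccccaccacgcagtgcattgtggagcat
Pdk4: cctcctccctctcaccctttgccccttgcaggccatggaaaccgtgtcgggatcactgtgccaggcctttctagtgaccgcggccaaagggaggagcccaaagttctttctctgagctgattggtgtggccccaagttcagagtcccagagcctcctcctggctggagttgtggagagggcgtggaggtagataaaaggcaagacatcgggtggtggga
Over the 8 genes with the hexamer, the log2 fold changes in CUG960 +dox ventricles were −0.90 for Ucp3, −0.42 for Acadvl, −0.40 for Cd36, −0.19 for Echs1, −0.13 for Cpt1a, −0.06 for Acadm, 0.03 for Acacb and 0.03 for Acsl6. Of these, Acadvl and Cd36 had an adjusted P value under 0.05, both lower, against 4.20% of all genes lower and 5.73% higher. None was called, against 4.75% of all genes. Pdk4 and Hadhb, whose windows hold no hexamer, also had an adjusted P value under 0.05, at −2.10 and −0.39, and Pdk4 was called.

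In ventricles, Pdk4 alone of the 38 members was called between the genotypes, with a lower level in CUG960 +dox mice. The 1 of 38 called is 2.63%, against 4.75% of the 16909 genes tested. The log2 fold change was negative for 32 of 38 members (84.2%) and for 51.4% of all genes, with a median of −0.21 against −0.01. Without V119 it was negative for 28 members, with a median of −0.14, and without V327 for 28, with a median of −0.19. The unadjusted P value was under 0.05 for 14 of 38 members and 25.7% of all genes. The groups did not overlap for 13 members, all of them lower in CUG960 +dox mice, against 15.0% of all genes lower and 16.2% higher without overlap.

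Pdk4 lies on the minus strand of chromosome 6 from 5483351 to 5496309. In ventricles it had 1000, 239 and 389.7 CPM in V327, V333 and V334, and 86.6, 192 and 101 CPM in V119, V120 and V123. Every CUG960 +dox mouse was below every control, but the controls themselves differed by more than the gap between the groups. Pdk4 fell by 2.10 on the log2 scale, a 4.29-fold lower level (standard error 0.49, adjusted P value 0.027 by edgeR's quasi-likelihood test). Without V327 the log2 fold change was −1.31 (adjusted P value 0.054). The call was also lost without V119 (−1.89, adjusted P value 0.088) and without V123 (−1.96, adjusted P value 0.078).

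Acot1 cleaves long-chain acyl-CoA in the cytosol, and its neighbour Acot2, 15616 bases away on chromosome 12, does so in mitochondria. Acot1 had 11.2, 9.98 and 8.96 CPM in ventricles of V327, V333 and V334, and 2.30, 4.46 and 7.10 CPM in V119, V120 and V123. The groups did not overlap, and the log2 fold change was −1.12 (standard error 0.32), but the adjusted P value of 0.056 missed the threshold. Acot1 passed it without V123 (−1.57, adjusted P value 0.0099). Acot2 had a log2 fold change of −0.31 (adjusted P value 0.29). The genes share sequence, with 17.1% of the 100-base stretches of Acot2 found in Acot1 and 12.4% of those of Acot1 found in other genes, so that their counts are partly uncertain.

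Ucp3, a mitochondrial carrier of the uncoupling protein family, had 66.3, 16.4 and 16.2 CPM in ventricles of V327, V333 and V334 and 15.6, 24.8 and 12.4 CPM in V119, V120 and V123. V327 stood far above the other controls, which overlapped with the CUG960 +dox mice. The log2 fold change of −0.90 (adjusted P value 0.30) became 0.11 without V327.

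**Figure D3:**
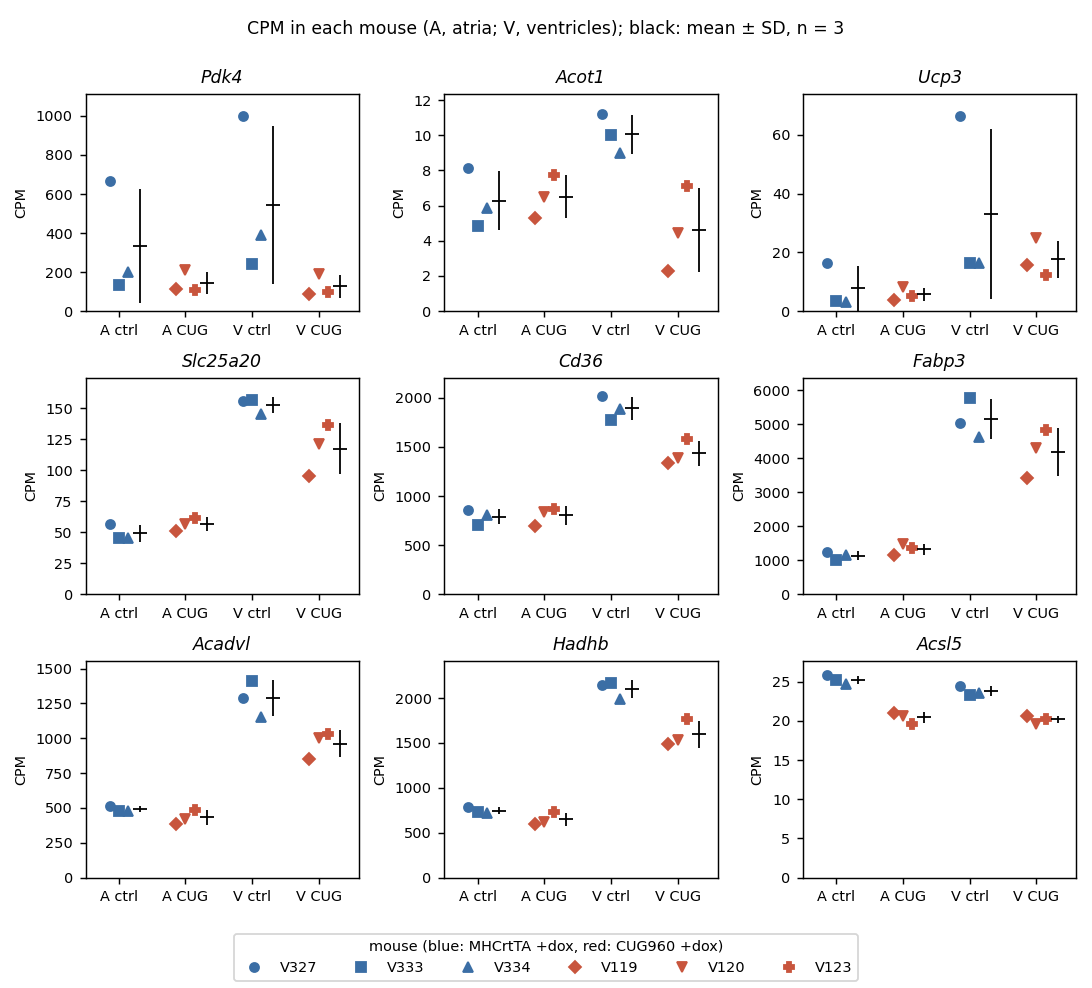
CPM of 9 members in each mouse, by chamber (A, atria; V, ventricles) and genotype, with the mean and SD of 3 mice in black; every axis starts at 0. V327 stands above the other controls for Pdk4 and Ucp3 in both chambers, with 1000 CPM of Pdk4 in ventricles, whereas the ventricular groups of Slc25a20, Cd36, Acadvl and Hadhb are apart without an outlying control.

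Without the fold change limit, 4 members had an adjusted P value under 0.05 in ventricles, all of them lower, namely Pdk4, Cd36, Acadvl and Hadhb, against 4.20% of all genes lower and 5.73% higher. The latter 3 were singled out after their values were seen. Cd36 had 2016, 1775 and 1886 CPM in ventricles of V327, V333 and V334 and 1342, 1383 and 1582 CPM in V119, V120 and V123 (log2 fold change −0.40, standard error 0.097, adjusted P value 0.033). Acadvl, the very long-chain acyl-CoA dehydrogenase, had 1292, 1414 and 1156 CPM in controls and 852, 1001 and 1033 CPM in CUG960 +dox mice (−0.42, standard error 0.11, adjusted P value 0.040). Hadhb had 2145, 2167 and 1986 CPM in controls and 1488, 1532 and 1766 CPM in CUG960 +dox mice (−0.39, standard error 0.096, adjusted P value 0.033). The CUG960 +dox mice were below each control for these 3 genes, at 1.31-fold to 1.34-fold lower levels. Each had the same sign with every mouse left out, but the adjusted P values then reached 0.14 for Cd36 and 0.12 for Acadvl and Hadhb. They stayed under 0.05 in only 2 of the 6 such fits for Cd36, 1 for Acadvl and 2 for Hadhb.

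Among the uptake genes, Fabp3 had 5043, 5773 and 4636 CPM in control ventricles and 3432, 4290.4 and 4817 CPM in CUG960 +dox ventricles. The groups overlapped, and the log2 fold change was −0.30 (adjusted P value 0.21). Lpl was at −0.29 (adjusted P value 0.079) without overlap, whereas Slc27a1 was at 0.03.

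The log2 fold changes of the acyl-CoA synthetases in ventricles lay between −0.24 for Acsl5 and 0.13 for Acsl3. Acsl5 had 24.5, 23.4 and 23.6 CPM in ventricles of V327, V333 and V334 and 20.6, 19.7 and 20.3 CPM in V119, V120 and V123, without overlap (adjusted P value 0.086). Acsl1 had 874, 789.9 and 853 CPM in controls and 758, 826 and 925 CPM in CUG960 +dox mice (log2 fold change −0.00, adjusted P value 0.99). Its groups overlapped fully. In the carnitine shuttle, Cpt1b had 669, 635 and 587 CPM in controls and 532, 645 and 699.7 CPM in CUG960 +dox mice (−0.01, adjusted P value 0.97). Slc25a20 had 156, 157 and 145 CPM in controls and 95.2, 121 and 136 CPM in CUG960 +dox mice (−0.38, adjusted P value 0.081). Cpt2 was at the same log2 fold change of −0.38 (adjusted P value 0.072). The difference between these genes and Cpt1b was not tested.

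Acacb had 341, 290.3 and 348 CPM in control ventricles and 308, 353 and 339 CPM in CUG960 +dox ventricles (log2 fold change 0.03, adjusted P value 0.87). Mlycd was at −0.33 (adjusted P value 0.13). Acadl had 1419, 1524 and 1308 CPM in controls and 1164, 1226 and 1376 CPM in CUG960 +dox mice (−0.17, adjusted P value 0.30). The groups of both Acacb and Acadl overlapped. All 7 genes of the dehydrogenase and electron transfer role had negative log2 fold changes, from −0.42 for Acadvl to −0.02 for Acads.

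Acaa2 had 803, 900.1 and 716 CPM in control ventricles and 604, 670.4 and 724 CPM in CUG960 +dox ventricles (−0.28, adjusted P value 0.14), with an overlap of V123 and V334. Eci1 had 312, 339 and 288 CPM in controls and 276, 285 and 302 CPM in CUG960 +dox mice (−0.12, adjusted P value 0.41). Pnpla2 had 284, 280.1 and 246 CPM in controls and 182, 275 and 242 CPM in CUG960 +dox mice (−0.21, adjusted P value 0.38). V119 was the lowest mouse for each of these 3 genes. Dgat2, the other gene of triglyceride storage, was at −0.07.

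In atria, 0 of 38 members were called by edgeR, against 5.49% of the 17650 genes tested, and 0 by DESeq2, against 6.27%. The unadjusted P value was under 0.05 for 5 members, Acsl5, Hadhb, Eci1, Eci2 and Dgat2, which is 13.2% of them and compares with 30.2% of all genes. The median log2 fold change was 0.04, with 15 of 38 negative. The groups did not overlap for 4 members, Acsl5 and Echs1 lower and Eci1 and Dgat2 higher, against 35.7% of all genes in either direction. Without the fold change limit 2 members passed, against 14.6% of all genes.

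These were Acsl5 and Eci1. Acsl5 had 25.8, 25.2 and 24.7 CPM in atria of V327, V333 and V334 and 21.0, 20.7 and 19.6 CPM in V119, V120 and V123 (log2 fold change −0.30, standard error 0.059, adjusted P value 0.013). The adjusted P value was between 0.023 and 0.053 with each mouse left out. The interaction for Acsl5 was 0.06 (adjusted P value 0.83), with ventricles at −0.24. Eci1 had 106, 95.4 and 94.9 CPM in controls and 114, 117 and 127 CPM in CUG960 +dox mice (0.27, standard error 0.069, adjusted P value 0.034). It was under 0.05 in 1 of the 6 fits without a mouse.

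Pdk4 had 667, 133 and 199.8 CPM in control atria of V327, V333 and V334 and 115, 208 and 108 CPM in V119, V120 and V123. The CUG960 +dox mice overlapped with V333 and V334, and the log2 fold change of −1.21 (adjusted P value 0.18) was −0.22 without V327. Acot1 had 8.12, 4.86 and 5.84 CPM in controls and 5.28, 6.49 and 7.71 CPM in CUG960 +dox mice (0.05, adjusted P value 0.90). Ucp3 had 16.5, 3.41 and 3.25 CPM in controls and 3.75, 8.2 and 5.21 CPM in CUG960 +dox mice. Its log2 fold change of −0.43 (adjusted P value 0.68) became 0.77 without V327.

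The abundant members differed little between the genotypes in atria. Fabp3 had 1160.0, 1472 and 1349 CPM in CUG960 +dox atria, overlapping with its control levels (log2 fold change 0.23, adjusted P value 0.20). Acadl had 593, 631 and 754 CPM (0.10, adjusted P value 0.59), and Acaa2 had 487, 479 and 552 CPM (0.03, adjusted P value 0.83). Both overlapped with the controls. Cd36 had 697, 839.8 and 873 CPM (0.03, adjusted P value 0.90).

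Acsl1 had 335, 412 and 479.5 CPM in CUG960 +dox atria (0.29, adjusted P value 0.27). Cpt1b had 351, 404 and 389 CPM (0.10, adjusted P value 0.47). Acacb had 194, 214 and 220.3 CPM (−0.05, adjusted P value 0.74). None of these 3 was separated from the control levels given above. Pnpla2 had 169.8, 198 and 183 CPM (−0.16, adjusted P value 0.26). Hadhb had 593, 625 and 732 CPM in CUG960 +dox atria against 788, 729 and 722 CPM in controls (−0.20, adjusted P value 0.16), and Acadvl 386, 423 and 488 against 515, 481 and 479 CPM (−0.19, adjusted P value 0.20).

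**Figure D4:**
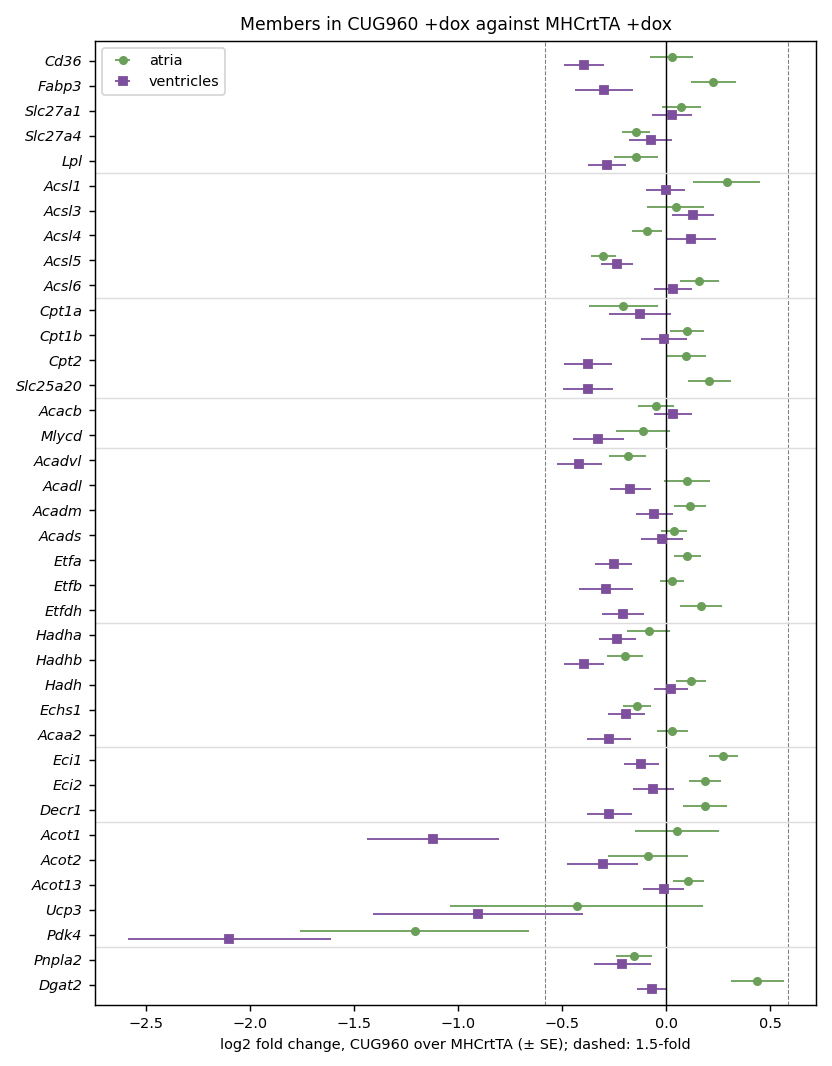
Log2 fold change of each member, CUG960 +dox over MHCrtTA +dox, with its standard error, in atria (green circles) and ventricles (purple squares); dashed lines mark a 1.5-fold difference and grey lines separate the roles. In ventricles 32 of 38 members lie to the left of 0 and in atria 15 do; Pdk4 and Acot1 are the farthest to the left in ventricles, at −2.10 and −1.12.

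The interaction of tissue and genotype asks whether the change in CUG960 +dox mice differs between ventricles and atria. By edgeR 0 of 38 members passed at an adjusted P value of 0.05, against 1.38% of the 18327 genes tested, and an unadjusted P value under 0.05 for 11 members and 12.3% of all genes. The change was more negative in ventricles for 32 of 38 members, with a median difference of −0.22 (log2), and for 49.6% of all genes, with a median of 0.00. Both chambers came from the same mice, and with the mouse as a block 3 members passed, against 1.82% of all genes, namely Pdk4 (−1.01, adjusted P value 0.0070), Acot1 (−1.31, adjusted P value 0.039) and Slc25a20 (−0.60, adjusted P value 0.033), all more negative in ventricles. With DESeq2 4 members passed, against 4.08% of all genes, namely Etfa, Dgat2, Eci1 and Slc25a20, also more negative in ventricles. With each mouse left out of the edgeR fit, 0 passed. The difference was negative for 32 members without V327 (median −0.30), for 31 without V119 (median −0.21) and for 28 without V333 (median −0.14).

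Slc25a20, the carnitine-acylcarnitine carrier on chromosome 9, was the member that passed both ways. In atria it had 56.7, 45.4 and 45.0 CPM in V327, V333 and V334 and 51.1, 56.9 and 61.9 CPM in V119, V120 and V123 (log2 fold change 0.21, adjusted P value 0.23). In ventricles each CUG960 +dox mouse was below each control, as given above. The summed level of all 38 members was 10358 ± 1182 CPM (SD, n = 3) in control atria and 10399 ± 772 CPM in CUG960 +dox atria. In ventricles the sums were 28605, 28798 and 26295 CPM in V327, V333 and V334 and 21199, 23217 and 25142 CPM in V119, V120 and V123, without overlap.

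Other genes of fatty acid metabolism were taken from a list of 94 genes outside the members, which covers peroxisomal oxidation, further binding proteins and thioesterases, lipid droplet proteins, lipogenesis and ketone use. They were chosen, like the regulators below, with earlier results of these data known, so their share called describes this list only. In ventricles, 13 of the 86 tested were called (15.1%, against 4.75% of all genes), 4 higher and 9 lower. The lower ones included Plin5 and Plin4, which coat lipid droplets, Mgll, which splits monoglycerides, the thioesterases Acot4 and Acot7, and the acyl-CoA dehydrogenase Acad11. Acot7 had 86.2, 89.7 and 73.1 CPM in V327, V333 and V334 and 32.1, 36.9 and 32.5 CPM in V119, V120 and V123 (log2 fold change −1.29, standard error 0.098, adjusted P value 9.6e-05). Acad11 was at −0.92 (adjusted P value 3.2e-04) and Mgll at −0.86 (adjusted P value 0.0012). These 3 calls held with each mouse left out.

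Plin5 had 148, 146 and 125 CPM in control ventricles and 62.3, 99.7 and 85.7 CPM in CUG960 +dox ventricles (−0.76, adjusted P value 0.016), a call that held in 5 of the 6 fits without a mouse. Fabp4, Ucp2 and Scd1, a binding protein of adipocytes and capillaries, an uncoupling protein and a desaturase, were at −0.60, −0.81 and −1.03. Their calls were lost in 3, 4 and 4 of the 6 fits without a mouse. The 4 higher genes were Echdc2, Acss3, Acox2 and Pdk3, of which Echdc2, at 0.59 close to the fold change limit, kept its call in 4 of 6 such fits, with adjusted P values of at most 0.013. Acss3, a short-chain acyl-CoA synthetase, had 2.84, 3.07 and 3.02 CPM in controls and 13.2, 9.30 and 8.37 CPM in CUG960 +dox mice (1.79, adjusted P value 3.7e-04). Pdk3, another kinase of pyruvate dehydrogenase, had 1.59, 1.63 and 2.0 CPM in controls and 3.57, 3.46 and 3.64 CPM in CUG960 +dox mice (1.03, adjusted P value 0.0031), the opposite direction to Pdk4. Acox2 stayed under 1 CPM, and its call was lost whichever mouse was left out.

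In atria, 6 of 86 were called (6.98%), a share close to the 5.49% of all genes. The unadjusted P value was under 0.05 for 47.7% of the 86, against 30.2% of all genes. Without the fold change limit 20 of 86 passed, 11 higher and 9 lower, against 14.6% of all genes. Of the 6 called, Dbi, Acss3, Abcd2 and Bdh1 were higher, and Ucp2 and Plin4 lower. Dbi, the acyl-CoA binding protein, had 95.4, 89.0 and 91.2 CPM in V327, V333 and V334 and 140.1, 142 and 139 CPM in V119, V120 and V123 (0.61, adjusted P value 5.2e-04). Bdh1, which interconverts ketone bodies, had a log2 fold change of 1.13 (adjusted P value 0.014). The atrial calls of Bdh1 and Ucp2 held in 5 of the 6 fits without a mouse, with adjusted P values of 0.053 and 0.052 in the other. Plin4, Ucp2 and Acss3 were called in the same direction in both chambers, with Plin4 at −0.82 in atria and −0.84 in ventricles, Ucp2 at −0.96 and −0.81 and Acss3 at 0.70 and 1.79.

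Of 24 regulators, which include the PPAR and estrogen-related receptors and their coactivators, 0 were called in atria by edgeR, with 5 at an unadjusted P value under 0.05 (20.8%, against 30.2% of all genes), and 3 in ventricles (12.5%, against 4.75% of all genes). Esrrb (0.67, adjusted P value 0.0023) and Nr4a1 (0.96, adjusted P value 0.037) rose, and Mlxipl, a carbohydrate response factor, fell (−0.80, adjusted P value 8.7e-04). The call of Nr4a1 was lost in 4 of the 6 fits without a mouse. The receptor Ppara and the coactivator Ppargc1a were not called in ventricles, at −0.07 and −0.08. The ventricular groups did not overlap for 10 regulators, 7 lower and 3 higher in CUG960 +dox mice, against 15.0% and 16.2% of all genes. Among those not called, Pparg had 9.11 to 10.3 CPM in controls and 5.08 to 7.84 CPM in CUG960 +dox mice. Esrrg went the other way, from 47.4 to 56.3 CPM in controls and from 62.4 to 73.4 CPM in CUG960 +dox mice. The transgene context genes Dmpk, Mbnl1 and Mbnl2 were at 0.22, 0.09 and 0.14 in ventricles and were not called. Dmpk here is the mouse gene and is not a measure of the repeat RNA, which holds human DMPK exons. The paper measured that RNA by RT-qPCR and reported a robust induction. Levels of Mbnl1 and Mbnl2 RNA do not show where their proteins are bound.

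Several other measures also differed between the genotypes, some of them in atria, where the sums of the members overlapped. Mitochondrially encoded genes took 20.5%, 19.6% and 20.5% of the counts in ventricles of V327, V333 and V334 and 18.4%, 15.3% and 17.3% in V119, V120 and V123, the same direction as the members. In atria their share was 11.8% to 12.2% in controls and 10.9% to 12% in the other genotype. Leaving these genes out of the counts left the median of the members in ventricles at −0.21. This step could move the members only through the scaling, so the part of that share in their levels was not tested. Of 9 general cardiomyocyte markers, 1 was called lower in ventricles, Ryr2, and 1 in atria, Ckm. The call of Ryr2 was lost in 3 of the 6 fits without a mouse, with adjusted P values up to 0.064. That of Ckm, at −0.60 close to the fold change limit, was lost in 2, although its adjusted P value stayed at or below 0.013. In ventricles 6 of the 9 had negative log2 fold changes, with a median of −0.12. Their sum in ventricles was 71683 ± 3369 CPM (SD, n = 3) in controls and 72115 ± 3320 CPM in CUG960 +dox mice. Myh6, the most abundant of them, had 23313 ± 477 and 27652 ± 325 CPM, and the other 8 summed to 48369 ± 3460 and 44463 ± 3048 CPM, with overlap between mice. In atria these 8 summed to 22828 ± 865 CPM in controls and 18922 ± 954 CPM in CUG960 +dox mice, without overlap. Their part in the levels of the members was not tested.

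Endothelial markers had lower sums in CUG960 +dox mice in both chambers. All 8 had negative log2 fold changes in ventricles and in atria, with 1 called in each, Fabp4 and Pecam1. Their sum was 1579, 1449 and 1438 CPM in ventricles of V327, V333 and V334 and 1011, 1036 and 1134 CPM in V119, V120 and V123. Fabp4 was the most abundant of them in each ventricular library, and none was at 0. Their part in the levels of Cd36 and Lpl, which are also expressed outside cardiomyocytes, was not tested.

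The 9 adipocyte markers were all at negative log2 fold changes, and 6 were called lower in ventricles, Plin1, Retn, Cfd, Pck1, Adig and Fabp4. With each mouse left out, the calls of Plin1, Cfd and Pck1 held, that of Fabp4 held in 3 of 6 fits, and those of Retn and Adig in 1 of 6. Fabp4, which the endothelial list also holds, made up most of their sum in each library. The other 8 summed to 9.81, 7.68 and 9.69 CPM in ventricles of V327, V333 and V334 and 2.34, 1.5 and 4.44 CPM in V119, V120 and V123. In atria V333 stood apart with 25.8 CPM. Their part in the levels of the members was not tested. In atria 0 of 9 adipocyte markers were called by edgeR, with 1 at an unadjusted P value under 0.05. Of the other lists, ventricular markers had 0 called in either chamber, atrial markers had 1 of 5 in ventricles (Nppa, higher, its call lost in 4 of the 6 fits without a mouse) and 0 of 5 in atria, fibroblast markers had 0 of 7 called in ventricles and 1 of 7 in atria (Postn, lower), leukocyte markers 0 of 7 in each, skeletal muscle markers 0 of 3 in ventricles and 2 of 4 in atria (Ckm and Tnnt3, lower), and brown adipocyte and hepatocyte markers 0. All 7 fibroblast markers had negative log2 fold changes in atria, and 3 of 7 in ventricles. Their sum in atria was 2217 to 2594 CPM in controls and 1866 to 2188 CPM in CUG960 +dox mice, without overlap. All 7 leukocyte markers were negative in each chamber, with sums that overlapped. All skeletal muscle markers tested were negative as well, but their sums did not overlap. In atria the sum was 758 to 803 CPM in controls and 460 to 558 CPM in CUG960 +dox mice. In ventricles it was 2550 to 2643 and 1714 to 2377 CPM. Ckm, which the cardiomyocyte list also holds, was the most abundant of them in each library. The liver marker Alb stayed under 10 counts in every library.

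**Figure D5:**
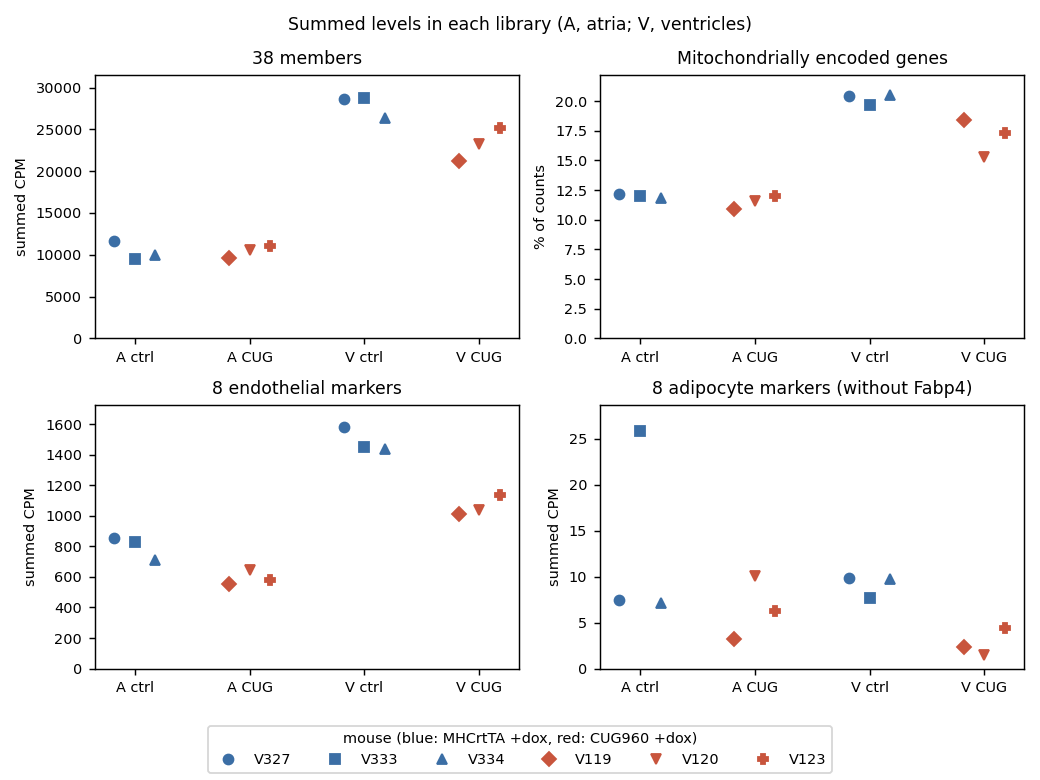
Summed CPM of the 38 members, of 8 endothelial markers and of 8 adipocyte markers without Fabp4, and the percentage of counts on mitochondrially encoded genes, in each of the 12 libraries by chamber and genotype; every axis starts at 0. In ventricles all 4 measures are lower in each CUG960 +dox mouse than in each control, whereas in atria the sums of the members overlap and V333 stands apart in the adipocyte markers, at 25.8 CPM.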

How the data were processed

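RNA of both heart chambers was measured in 6 mice, 3 of each genotype. The libraries were poly(A) selected and stranded. The authors aligned read pairs to mm10 (GRCm38) and used RSEM 1.3.1 to obtain expected counts per gene. They deposited these as whole numbers in a single unscaled table. RSEM shares out reads with more than one matching locus.

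Counts were tested with edgeR 4.0.16 in R 4.3.3 (filterByExpr, TMM, glmQLFit and glmQLFTest) over all genes, in each tissue, in each genotype between chambers, and for the interaction over all 12 libraries. A call needed a Benjamini-Hochberg adjusted P value under 0.05 and at least a 1.5-fold difference (no fold limit for the interaction). CPM used TMM over 12 libraries, and exon lengths and coordinates came from GENCODE M21 (GRCm38), a later release than the one counted on. The steps were also run on simulated counts with the same spread for every gene and no effect of the mouse. Such counts do not hold the paired chambers or outlying mice of these data, and no result rests on them. The genotypes came from different crosses, so that litter and genotype cannot be told apart, and the sources used here do not say whether mice of 1 genotype shared a litter. Within a chamber, P values rest on the spread between these mice, which edgeR shares across genes. The chamber and interaction fits without the block held no mouse term. Their P values rest on the spread between libraries, with both chambers of a mouse taken as separate.

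The members, the gene lists and the rule for named genes were chosen with earlier results of these data known. Values per mouse are given for members called, or gaining or losing a call when a mouse was left out, in the genotype comparisons, for the 3 of highest level per length, and otherwise for the highest of each role. Cd36, Acadvl, Hadhb, Acsl5, Slc25a20 and Ucp3 were added after their values were seen.

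Chambers carry the same mouse numbers in the labels, so the mouse pairs the libraries of a chamber comparison and of the interaction. After subtraction of group means, the correlation over genes was 0.030 to 0.135 for libraries of the same mouse, and −0.141 to 0.054 for different mice. The alternatives were DESeq2 1.42.0, other normalizations and filters, other fold limits, a single fit, the mouse as a block, and each mouse left out. Figures were drawn with matplotlib 3.10.9.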

Additional observations from a re-analysis of the deposited data

Results flagged for a closer look

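The change in CUG960 +dox mice was compared between chambers by the interaction of tissue and genotype (edgeR without a mouse term). It differed for 7 genes of the lists around the members, at an adjusted P value under 0.05. These were 4 of 88 other genes of fatty acid metabolism (4.55%), 2 of 24 regulators (8.33%) and 1 of the cell type markers. Of all 18327 genes tested, 1.38% passed. The lists were chosen with earlier results of these data known, so these shares describe the lists only. The values are the log2 change in ventricles minus that in atria. Acyl-CoA binding protein Dbi was at −0.91, the thioesterase Acot7 at −1.0, the receptor Rxrg at −0.63 and Mlxipl at −0.75. The synthetase Acss3 was at 1.09, the kinase Pdk3 at 0.86 and the atrial peptide Nppa at 1.72. Dbi passed in each of the 6 fits without a mouse, Acot7 in 5, Pdk3 in 4, Mlxipl in 3, Rxrg and Nppa in 2 and Acss3 in 1. Nppa had 48.6 to 84.8 CPM in control ventricles and 86.6 to 224 CPM in CUG960 +dox ventricles, against 11402 to 16582 CPM in atria. The atrial marker Myl7 was uneven among ventricles. It had 8.02, 4.98 and 19.3 CPM in V327, V333 and V334 and 0.19, 0.30 and 55.9 CPM in V119, V120 and V123. The part of atrial tissue in the ventricular levels of Nppa was not tested.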

How the results depend on the processing

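The number of members called stayed within a factor of 1.5 in 59 of 69 settings. In atria it was 0 throughout, except 2 with no fold limit. In ventricles it was 1 (Pdk4), but 4 with no fold limit, 2 with no filter on low counts and 2 with all 12 libraries in a single fit (Acot1 in addition), and between 0 and 1 with each mouse left out. It was 0 without V119 or V327, and without V123 the 1 was Acot1. The interaction gave 0 members, but 4 with DESeq2 (4.08% of all genes passed) and 3 with the mouse as a replicate block (1.82% of all genes), and between 0 and 0 with each mouse left out. Between chambers, a log2 fold change of at least 1.5 left 12 of 31 members in controls and 4 of 27 in CUG960 +dox mice, and each mouse left out gave 29 to 32 and 27 to 28. The block changed no other call of a member than those given with the results. All members passed the filter on low counts.

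Signs changed for some genes, most of them near 0, but also for Ucp3, whose values of −0.43 in atria and −0.90 in ventricles became 0.77 and 0.11 without V327. With each mouse left out, the log2 fold change in atria ranged from −0.10 to 0.27 for Acot1, −0.01 to 0.20 for Acadl, −0.04 to 0.07 for Acaa2, −0.11 to 0.03 for Acacb, −0.05 to 0.12 for Cd36 and −0.79 to 0.77 for Ucp3. In ventricles it ranged from −0.08 to 0.06 for Acsl1, −0.10 to 0.10 for Cpt1b, −0.04 to 0.09 for Acacb and −1.23 to 0.11 for Ucp3. Acsl1 in ventricles was 0.00 with upper quartile normalization and 0.00 with no filter. The interaction of Pnpla2 ranged from −0.13 to 0.04. Of the other values of single genes, 836 kept their direction and side of the threshold, 16 gained and 21 lost a threshold.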
